A study of Mus musculus with 2 samples.

Results

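Branched-chain amino acid breakdown was followed through 10 genes in RNA of microvesicles released by fat cells and in RNA of their donor cells. The genes were Bcat2, Bckdha, Bckdhb, Dbt, Ivd, Mccc1, Mccc2, Pcca, Pccb and Auh, and every array probe annotated with 1 of these names was taken, which gave 19 of the 41174 gene probes on the array. The vesicle RNA came from adipocyte-derived microvesicles (ADMs) of the mouse cell line 3T3-L1, pelleted by ultracentrifugation from conditioned medium. It was set against RNA of the donor 3T3-L1 adipocytes, harvested on the same day. Donor cells had been turned from preadipocytes into adipocytes with insulin (10 µg/ml), IBMX (0.5 mM) and dexamethasone (0.25 µM) in medium with 10% FCS, and both RNAs were taken on day 11. There were 2 biological replicates per the labels, each an ADM RNA and a cell RNA hybridised together to a 2-colour array. The ADM RNA carried Cy5 in replicate 1 and Cy3 in replicate 2. Whether the replicates came from separate cultures is not given, so the p-values below measure only the spread between these samples, which may be technical. The arrays shared 1 slide and 1 scan. Directions follow the dyes as the labels give them.

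Leucine, isoleucine and valine are broken down in mitochondria, and adipose tissue is known for a high capacity to do so. A transaminase (Bcat2) first turns each amino acid into a branched-chain 2-oxo acid. A complex made of a decarboxylase (Bckdha and Bckdhb) and an acyltransferase (Dbt), together with the shared subunit Dld, then commits it to breakdown. Leucine passes on through isovaleryl-CoA dehydrogenase (Ivd), the biotin-dependent methylcrotonyl-CoA carboxylase (Mccc1 and Mccc2) and methylglutaconyl-CoA hydratase (Auh). Isoleucine and valine end as propionyl-CoA, which the biotin-dependent propionyl-CoA carboxylase (Pcca and Pccb) takes towards the citric acid cycle. During conversion of 3T3-L1 cells to adipocytes this pathway is known to be induced.

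Both RNAs carried adipocyte transcripts. All 10 adipocyte marker genes examined, among them Adipoq, Fabp4 and Pparg, were well above background in both RNAs on both arrays. Preadipocyte and fibroblast markers reached that level for 8 of 8 genes in ADM RNA and 5 of 8 in cell RNA. For the other markers the counts were 2 of 7 leukocyte, 0 of 5 hepatocyte, 1 of 5 muscle and 1 of 4 erythroid genes in ADM RNA. In cell RNA they were 0, 1, 0 and 2 of the same genes. ADM channels were far brighter than cell channels, with 18876 probes well above background on both arrays in ADM RNA, against 9811 in cell RNA. Relative to spike-in transcripts added before labelling, the tested probes gave more signal in ADM RNA by a median log2 of 3.28 in replicate 1 and 3.73 in replicate 2. The values below are therefore log2 ratios of ADM over cell signal after loess, which sets a probe against others of similar mean brightness and describes the make-up of the RNAs, not amounts. The labels give 250 ng of RNA for both arrays, so these signals do not measure RNA per vesicle or per cell. Why ADM RNA gave more signal was not tested.

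Transcripts of all 10 genes were detected in ADM RNA. Of the 19 probes, 18 were well above background in ADM RNA on both arrays, and these covered all 10 genes. In cell RNA 14 probes were so on both arrays, 1 on a single array and 4 on neither. Net signal, that is the spot minus its local background, was higher in ADM RNA than in cell RNA for every probe with a positive value in both, by 1.38-fold to 350.5-fold before normalization. The remaining case was an Mccc2 probe with a net signal of -3.51 scanner units in cell RNA of replicate 2. The ADM channel was brighter over the array as a whole, so this excess is nothing particular to these genes. The plot of net signals shows it as a separation of the ADM and cell points on nearly every line.

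**Figure D1:**
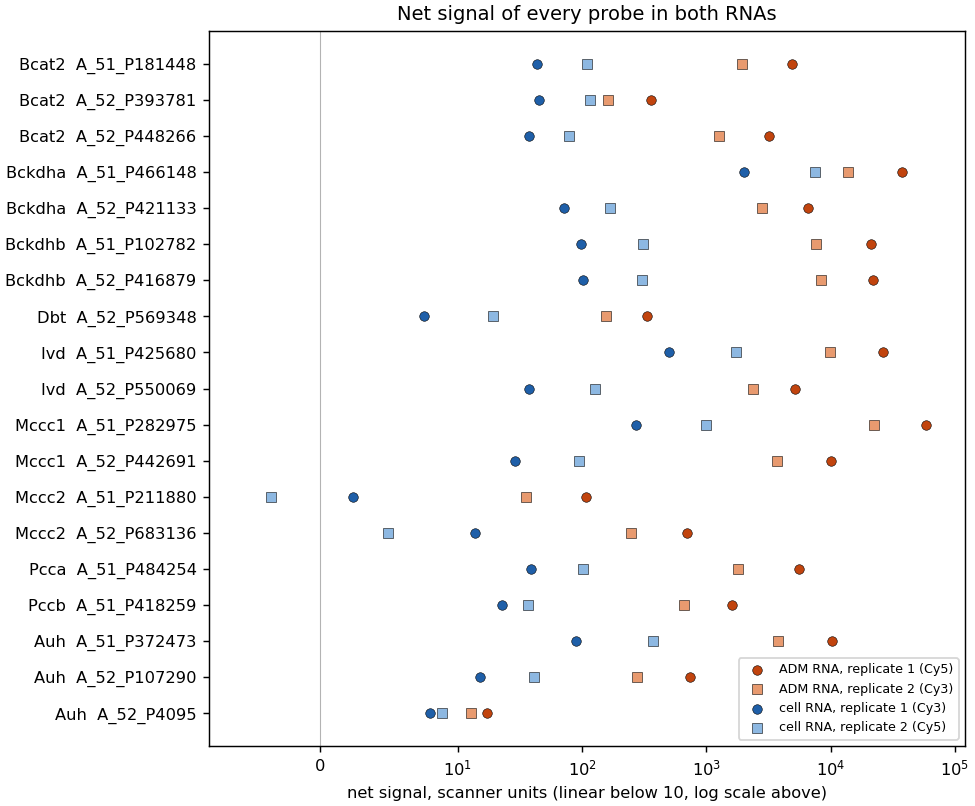
Net signal of each of the 19 probes (spot minus local background, scanner units, linear below 10 and logarithmic above). Circles are replicate 1 and squares replicate 2, with ADM RNA in red shades and cell RNA in blue shades. ADM points lie to the right of cell points of the same array on every line, closest for Auh A_52_P4095 and for Bcat2 A_52_P393781 in replicate 2.

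After loess, 14 member probes had a value on both arrays and passed the filter. Limma called 6 of them higher and 2 lower in ADM RNA at an adjusted p of 0.05, and 6 did not pass. Over the array, 16.4% of 18117 tested probes were called, 5.52% higher and 10.9% lower. The median log2 ratio was 0.49 for the members and 0.07 for all tested probes. On both arrays 11 probes were positive and 2 negative, and 1 changed sign. These signs were taken against 0, while probes of like signal mostly had medians above 0. The same count over all tested probes was not made. Both Mccc2 probes and Auh A_52_P107290 passed the filter through ADM RNA alone. With a filter on both RNAs the median was 0.64 for the members and -0.06 for all tested probes. The higher calls fell on Bcat2, Bckdhb (both probes), Ivd, Mccc1 and Pcca. The lower calls fell on a different Bcat2 probe and on Bckdha. No probe of Mccc2, Pccb or Auh passed, and Dbt could not be tested. Calls depended on how spots of outlying local background were treated, and here those flagged by the scanner were left out. Local backgrounds above 100 scanner units were found at 13 spots in replicate 1 and 8 in replicate 2. Leaving out only these gave 7 higher and 3 lower of 18 member probes tested, against 19.4% of all probes called (6.94% higher, 12.5% lower). With no spot left out for its local background, limma called 0 probes of the whole array (158 at an unadjusted p under 0.05). With spike-in centring all 14 member probes were higher, as were 17329 of all 18117 tested probes (147 lower).

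**Figure D2:**
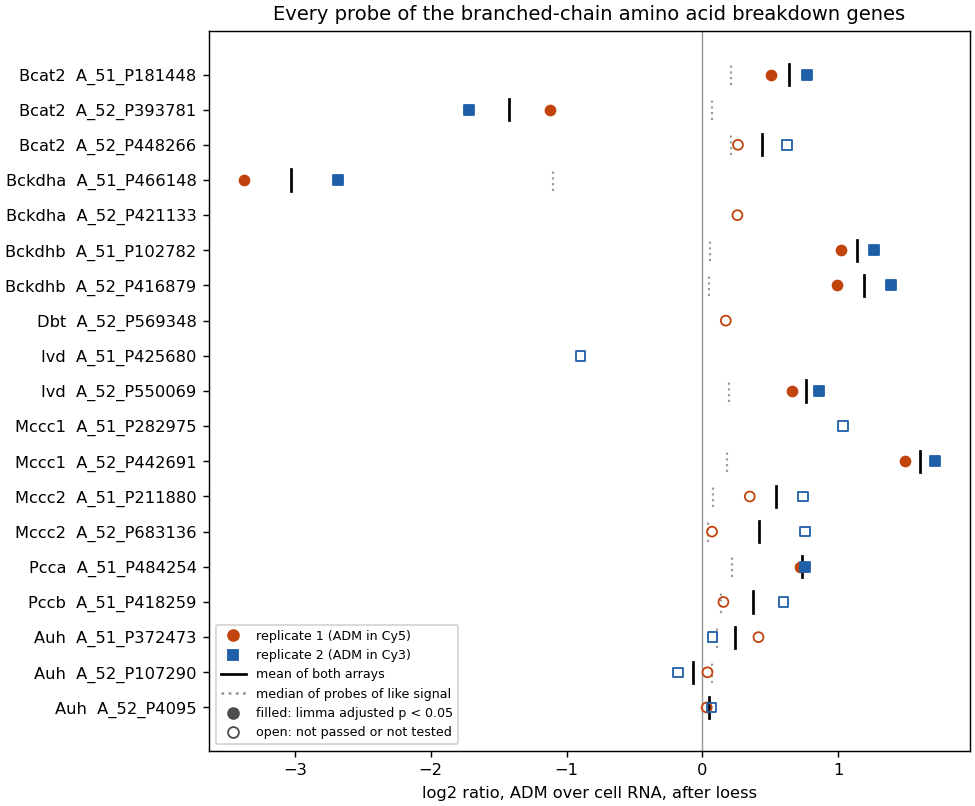
Log2 ratio of ADM over cell RNA after loess for each of the 19 probes. Circles are replicate 1 and squares replicate 2, filled where limma's adjusted p was under 0.05, with a black bar at the mean of both arrays and a grey dotted bar at the median of tested probes of like signal. Bckdhb and Mccc1 lie furthest right, and Bckdha A_51_P466148 furthest left at -3.38 and -2.68.

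Bcat2, the mitochondrial transaminase, had a ratio of opposite sign at its most upstream probe and at its other probes. Probe A_51_P181448, on the plus strand of chromosome 7 from 41765126 to 41765185 in mouse build mm7, had net signals of 4896 and 1938 scanner units in ADM RNA (replicates 1 and 2), against 43.0 and 109.1 in cell RNA. On the log2 scale the ratio was 0.50 and 0.77, a mean of 0.64 ± 0.19 (SD, n = 2; limma adjusted p = 0.0493), or 1.56-fold. Probes of like signal had a median of 0.21. Both arrays were thus positive, but the call was at the edge of the threshold, and with a narrower loess span of 0.1 the adjusted p was 0.0764.

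A second Bcat2 probe, A_52_P448266, lies 1045 bases upstream of that one and agreed in sign, with 0.26 and 0.62 (mean 0.44 ± 0.25, SD, n = 2; limma adjusted p = 0.114). The third, A_52_P393781, lies 13564 bases upstream of the first, at 41751562 to 41751621. Its net signals were 359.7 and 160.2 in ADM RNA, against 45.0 and 115.9 in cell RNA. Here ADM and cell signals were close in replicate 2. The log2 ratio was -1.12 and -1.72, a mean of -1.42 ± 0.42 (SD, n = 2; limma adjusted p = 0.0255), or 2.68-fold lower in ADM RNA. Bcat1, the cytosolic transaminase, was not called by its only tested probe (-0.26 and -0.83, mean -0.55 ± 0.40, SD, n = 2; limma adjusted p = 0.120).

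Of the decarboxylase subunits, beta was higher by both of its probes, while alpha was lower by 1 of its 2 probes. Bckdhb, the beta subunit, was measured by 2 probes whose starts lie 85 bases apart on chromosome 9 (plus strand, mm7). Probe A_52_P416879 (84220473 to 84220532) had net signals of 21840 and 8315 in ADM RNA, against 102.4 and 302.0 in cell RNA. Its log2 ratio was 0.99 and 1.39, a mean of 1.19 ± 0.28 (SD, n = 2; limma adjusted p = 0.0239), or 2.28-fold. Probe A_51_P102782, whose 60 bases span 1646 bases of genome and so cross at least 1 intron by the file's coordinates, gave 1.02 and 1.26, a mean of 1.14 ± 0.17 (limma adjusted p = 0.0198). Both probes therefore rose on both arrays by about the same amount, while probes of like signal had medians of 0.05 and 0.05.

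Bckdha, the alpha subunit that carries the regulatory phosphorylation sites, had the lowest ratio of the tested member probes after loess. Probe A_51_P466148 (chromosome 7, minus strand, 22403831 to 22403890, mm7) was bright in both RNAs, with 37658 and 13709 scanner units in ADM RNA, against 2015 and 7442 in cell RNA. Its log2 ratio was -3.38 and -2.68, a mean of -3.03 ± 0.49 (SD, n = 2; limma adjusted p = 0.00877), or 8.17-fold lower. Both arrays were far below 0, but loess left a downward trend among the brightest probes, and the 60 probes of like signal had a median of -1.10. With a loess span of 0.1 the value was -2.21 (limma adjusted p = 0.00206). With median centring in place of loess it was 0.17 (adjusted p = 0.676), so its direction depended on the scaling.

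The other Bckdha probe, A_52_P421133, 3273 bases upstream, had 6533 and 2813 scanner units in ADM RNA, against 71.1 and 166.1 in cell RNA. It was left out of the test because its local background carried an outlier flag in replicate 2, and in replicate 1 its log2 ratio was 0.26. When the spots left out were only those whose local background exceeded 100 scanner units, a setting chosen after seeing the data, it gave 0.27 and 0.74 (mean 0.51 ± 0.33, SD, n = 2; limma adjusted p = 0.103). The low value of Bckdha thus belongs to 1 of its 2 probes. Dbt, the acyltransferase core of the complex, was measured by a single dim probe on chromosome 3, with 332.3 and 154.6 scanner units in ADM RNA, against 7.58 and 19.03 in cell RNA. Its cell signal was not well above background on either array. Its log2 ratio was 0.17 in replicate 1, replicate 2 being left out for its local background, and 0.11 with that spot restored (limma adjusted p = 0.495).

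In the leucine branch, Mccc1 and Ivd were each called higher by their 1 tested probe. Ivd, which oxidises isovaleryl-CoA, was called higher by probe A_52_P550069 (chromosome 2, plus strand, 118621382 to 118621441, mm7), with 5119 and 2386 scanner units in ADM RNA, against 37.5 and 126.5 in cell RNA. This gave log2 ratios of 0.66 and 0.86, a mean of 0.76 ± 0.14 (SD, n = 2; limma adjusted p = 0.0330), or 1.69-fold. Probes of like signal had a median of 0.20. A second Ivd probe, A_51_P425680, lies 729 bases downstream and had 26273 and 9901 scanner units in ADM RNA, against 503.1 and 1740 in cell RNA. That probe had a value in replicate 2 alone (-0.90), and with the replicate 1 spot restored it stood at -1.13 and -0.90 (mean -1.01 ± 0.16, SD, n = 2; limma adjusted p = 0.0179). The sign for Ivd therefore depended on the probe.

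Mccc1, the biotin-carrying subunit of methylcrotonyl-CoA carboxylase, had the highest ratio of the tested member probes after loess, though not with processed signals (Mccc2) or with median or spike-in centring (Bckdhb). Probe A_52_P442691 (chromosome 3, minus strand, 35783065 to 35783880, mm7, again across at least 1 intron) had 10025 and 3701 scanner units in ADM RNA, against 28.6 and 94.7 in cell RNA. Its log2 ratio was 1.49 and 1.71, a mean of 1.60 ± 0.16 (SD, n = 2; limma adjusted p = 0.0114), or 3.03-fold, against a median of 0.18 for probes of like signal. Its second probe, A_51_P282975, 15977 bases downstream, had a value in replicate 2 alone (1.03). With the replicate 1 spot restored it gave 0.70 and 1.03 (mean 0.87 ± 0.24, SD, n = 2; limma adjusted p = 0.0274). Unlike the probes of Ivd, those of Mccc1 thus had the same sign.

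Mccc2, the partner subunit that lacks biotin, was hard to measure, since neither of its probes was well above background in cell RNA on either array. Probe A_51_P211880 had 107.9 and 35.4 scanner units in ADM RNA, against 2.39 and -3.51 in cell RNA, and log2 ratios of 0.35 and 0.74. Their mean was 0.55 ± 0.28 (SD, n = 2; limma adjusted p = 0.0834). Taking the cell channel at no less than the lowest signal well above background, the lower bound of the ratio was 1.34-fold. That bound was not itself tested. The other, A_52_P683136, had log2 ratios of 0.07 and 0.76 (mean 0.41 ± 0.48, SD, n = 2; limma adjusted p = 0.232). Its net cell signals were 13.8 and 4.90 scanner units, not well above background on either array. After normalization its cell value lay above that floor, so the rule returned the ratio itself. That ratio too is limited by dim cell signal. Neither probe passed here, but A_51_P211880 did with a normexp offset of 10 (1.63, limma adjusted p = 0.0218). With processed signals both did, at 2.47 (limma adjusted p = 0.0211) and 4.37 (0.0197), while median centring put A_51_P211880 at -1.17, so Mccc2 had no direction that held across scalings.

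Auh, which hydrates methylglutaconyl-CoA and also binds AU-rich RNA, did not pass by any of its 3 probes. A_51_P372473, the brightest, had 10218 and 3750 scanner units in ADM RNA, against 89.7 and 370.2 in cell RNA, and log2 ratios of 0.41 and 0.07 (mean 0.24 ± 0.24, SD, n = 2; limma adjusted p = 0.282). A_52_P107290 had 0.04 and -0.18 (limma adjusted p = 0.694) and was the only member whose arrays differed in sign. A_52_P4095 was not well above background in either RNA and was not tested.

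Of the propionyl-CoA carboxylase subunits, Pcca rose and Pccb did not pass. Pcca, the biotin-carrying subunit, was measured by A_51_P484254 on chromosome 14 (plus strand, mm7), whose 60 bases span 117216765 to 117280340. It had 5601 and 1806 scanner units in ADM RNA, against 38.7 and 102.4 in cell RNA. The arrays gave log2 ratios of 0.72 and 0.76, a mean of 0.74 ± 0.03 (SD, n = 2; limma adjusted p = 0.0302), or 1.67-fold, the closest pair of arrays among the tested members. Probes of like signal had a median of 0.22. Pccb, the partner subunit, had 1613 and 658.2 scanner units in ADM RNA, against 22.6 and 37.0 in cell RNA, on chromosome 9. Its log2 ratio was 0.16 and 0.60, a mean of 0.38 ± 0.31 (SD, n = 2; limma adjusted p = 0.178). Whether Pcca and Pccb differ from each other was not tested.

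Since the probes of a gene share the same labelled RNAs, their ratios were also set side by side before any normalization. For Bcat2 the ADM-over-cell ratio of net signal at the most downstream probe was 14.2 times that at the most upstream probe in replicate 1 and 12.8 times in replicate 2. For Bckdha the upstream ratio exceeded the downstream one 4.92 and 9.19 times, for Ivd 2.61 and 3.31 times and for Mccc1 1.63 and 1.72 times. For Bckdhb the downstream ratio was 1.02 and 0.91 times the upstream one. A constant shift of an array leaves these gaps as they are, while loess changed their size, for example to log2 gaps of 1.62 and 2.47 in Bcat2, against 3.83 and 3.68 before. Each of the first 4 had the same direction under both dye orientations, before loess and, with flagged spots restored, after it. Direction along the gene was not shared, as the ratio was higher downstream in Bcat2 and higher upstream in the other 3. In scanner signal, the brighter probe had the lower ratio in Bckdha, Ivd and Mccc1, and the dimmest one did in Bcat2. After loess, 25 of 3850 genes with more than 1 tested probe (0.649%) had calls in both directions, Bcat2 among them. With only backgrounds above 100 left out it was 46 of 4408 (1.04%), with Bcat2 and Ivd, and with a loess span of 0.1 it was 22 of 3850 (0.571%), with no member. Without loess it was more common, at 768 genes (19.9%) with median centring, Bcat2 again among them, and 190 (4.94%) with processed signals, with no member. Gaps over 2 on the log2 scale occurred in 28.6% of genes with median centring and 26.7% with processed signals, against 4.16% after loess. A gap over 2 without loess is thus not particular to these genes. These shares do not rest on ratios of net signal. How many genes had net-signal gaps as large as those of Bcat2 and Bckdha was not counted. The files give no annotation of exon or UTR for these probes, and the transcripts each can bind were not examined.

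**Figure D3:**
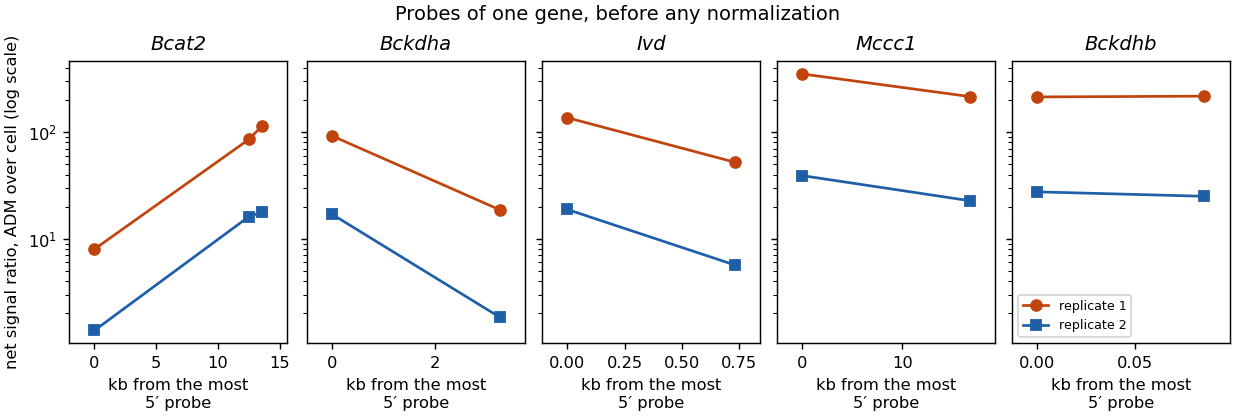
Ratio of ADM over cell net signal, before normalization (log scale), against distance in kb from the most upstream probe, for the 5 genes with at least 2 probes well above background in both RNAs on both arrays. Red circles are replicate 1 and blue squares replicate 2. The line climbs for Bcat2, falls for Bckdha, Ivd and Mccc1 and is nearly level for Bckdhb on both arrays.

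Promoters of Mccc1 and Bckdhb are shown with that of Bckdha, because 1 probe of Bckdha stood furthest from theirs after loess. That order depended on the scaling and on the probe of Bckdha. They come from RefSeq (GRCm38.p6) and run from 250 bases before to 50 after the start of the gene, 5′ to 3′ on the strand of the gene. Capitals mark CCAAT or GGGCGG on either strand, the CCAAT box and the GC box of many housekeeping promoters.
Mccc1: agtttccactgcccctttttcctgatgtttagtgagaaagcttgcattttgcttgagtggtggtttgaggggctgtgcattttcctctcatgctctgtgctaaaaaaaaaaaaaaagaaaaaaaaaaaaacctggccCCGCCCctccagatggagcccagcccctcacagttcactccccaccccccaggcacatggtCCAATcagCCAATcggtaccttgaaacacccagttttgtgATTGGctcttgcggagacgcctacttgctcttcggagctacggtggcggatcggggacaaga
Bckdhb: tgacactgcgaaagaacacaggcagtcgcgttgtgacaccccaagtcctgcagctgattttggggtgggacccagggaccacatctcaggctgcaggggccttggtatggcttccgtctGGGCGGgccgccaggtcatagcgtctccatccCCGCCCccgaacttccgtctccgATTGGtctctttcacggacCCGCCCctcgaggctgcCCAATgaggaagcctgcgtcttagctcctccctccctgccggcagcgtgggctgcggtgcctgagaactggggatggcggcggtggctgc
Bckdha: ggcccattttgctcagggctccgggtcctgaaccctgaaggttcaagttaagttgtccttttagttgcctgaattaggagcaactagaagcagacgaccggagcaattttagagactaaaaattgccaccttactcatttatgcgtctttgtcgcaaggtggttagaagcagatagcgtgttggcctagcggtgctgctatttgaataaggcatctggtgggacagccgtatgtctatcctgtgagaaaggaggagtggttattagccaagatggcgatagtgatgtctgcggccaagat
Their regions were chr3:36000629-36000928 (minus strand), chr9:83924887-83925186 (plus strand) and chr7:25658712-25659011 (minus strand), in that order. Mccc1 held 3 CCAAT and 1 GGGCGG matches, Bckdhb 2 and 3, and Bckdha none. Promoters of 9 members were matched by symbol. CCAAT occurred in 5 of them, against 37.4% of 32851 promoters in the table, and GGGCGG in 3, against 35.7%. TATAAA (13.6% of all) and AAGGTCA, the core of sites bound by estrogen-related receptors (4.72%), occurred in 0 of the 9. A match is a description of these letters, and the arrays measured RNA in vesicles and cells, not promoter activity.

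Around the members, the other enzymes of the pathway were mostly uncalled, as were most genes of the array. Each gene here stands by its brightest tested probe, a rule under which 19.5% of 13186 genes were called (6.37% higher, 13.1% lower) and the median log2 ratio of all genes was 0.04. By that rule 9 of the 10 members could be tested, with 5 higher, 1 lower, 3 not called and a median of 0.64. For Ivd and Mccc1 a brighter probe was left out of the test for its local background. With only backgrounds above 100 left out, that probe of Ivd was lower (-1.01, limma adjusted p = 0.0179). The one of Mccc1 was higher (0.87, limma adjusted p = 0.0274). Of 20 other genes of branched-chain amino acid catabolism, 18 could be tested, with 2 higher, 1 lower, 15 not called and a median of 0.32. Mut, the methylmalonyl-CoA mutase, had a log2 ratio of 1.28 and 1.57 (mean 1.42 ± 0.21, SD, n = 2; limma adjusted p = 0.0152), and its other tested probe gave 1.11. Dld, the dihydrolipoamide dehydrogenase shared by the 2-oxo acid dehydrogenases, had 0.79 and 1.16 (mean 0.98 ± 0.26, SD, n = 2; limma adjusted p = 0.0301), with 1.12 and 0.65 at its other probes. Acat1, the mitochondrial thiolase of isoleucine and ketone body metabolism, was lower with -1.31 and -0.98 (mean -1.14 ± 0.23, SD, n = 2; limma adjusted p = 0.0229) and had 1.31 with median centring. The epimerase gene Mcee, whose product acts between propionyl-CoA carboxylase and Mut, was not called (mean 0.36 ± 0.09, SD, n = 2; limma adjusted p = 0.111). Mcee was chosen after its values were seen.

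Of 11 regulators and carriers, 10 could be tested, with 1 higher, 1 lower, 8 not called and a median of 0.31. Neither enzyme that sets the phosphorylation of Bckdha passed. The kinase Bckdk had 0.36 and 0.43 (mean 0.40 ± 0.05, SD, n = 2; limma adjusted p = 0.0877) and the phosphatase Ppm1k 0.27 and 0.31 (mean 0.29 ± 0.02; adjusted p = 0.1504). Net cell signals of that Ppm1k probe were 4.48 and 6.98 scanner units, not well above background on either array. With processed signals its log2 ratio was 3.05 (limma adjusted p = 0.0212). The other Ppm1k probe, also dim in cell RNA, had a value in replicate 1 alone (0.04). Klf15, a transcription factor known to control genes of amino acid breakdown, was called higher by its brightest probe (0.86 and 0.90, mean 0.88 ± 0.03, SD, n = 2; limma adjusted p = 0.0239), but its other probe gave -0.20. Slc3a2, the heavy chain of the large neutral amino acid transporters, was called lower (-1.37 and -1.02, mean -1.20 ± 0.25, SD, n = 2; limma adjusted p = 0.0225), while its other probe gave -0.05 and median centring turned it to 1.44. Both calls therefore rest on 1 probe of a gene.

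The sister complexes that act on pyruvate and 2-oxoglutarate, with their kinases and phosphatase, gave 3 higher and 2 lower of 11 tested, and 6 not called, with a median of 0.36. Beside Dld, Pdha1, the pyruvate dehydrogenase alpha subunit, was higher (mean 0.75 ± 0.20, SD, n = 2; limma adjusted p = 0.0388; other probe 0.87), and so was the kinase gene Pdk1 (mean 0.57 ± 0.08; adjusted p = 0.0476; other probe 0.34). Pdhx, which anchors the shared subunit to the pyruvate complex, was lower with -3.33 and -3.26 (mean -3.30 ± 0.05, SD, n = 2; limma adjusted p = 0.00198), but its other probe gave 0.54, and with median centring the call was lost (-0.60, adjusted p = 0.120). The kinase gene Pdk2 was lower with a mean of -0.79 ± 0.21 (limma adjusted p = 0.0362). As with Bckdha, a strongly negative Pdhx probe stood beside a positive one. None of 3 other biotin carboxylases tested (Acaca, Acacb and Pcx, median 0.45) and none of 3 fatty acyl-CoA dehydrogenases tested (Acadl, Acads and Gcdh, median 0.43) was called by limma. Hibadh, Echs1, Hlcs, Acadm and Acadvl lacked a value on 1 array because of a local background flag.

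**Figure D4:**
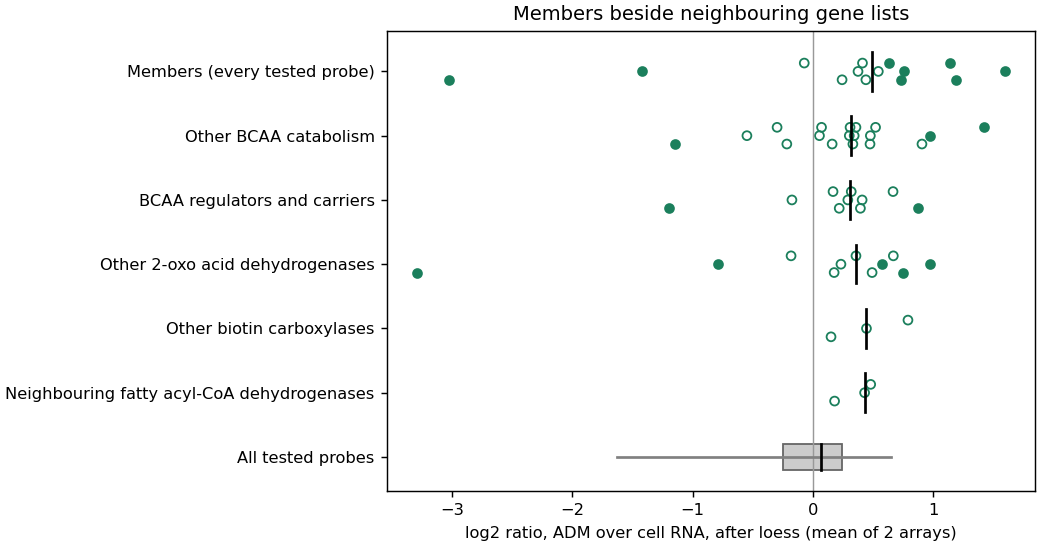
Log2 ratio of ADM over cell RNA after loess (mean of both arrays) for every tested member probe and for the genes of 5 neighbouring lists by their brightest tested probe, filled where limma's adjusted p was under 0.05. Black bars are medians, and the box at the bottom spans the middle of all 18117 tested probes with a line from the 5th to the 95th percentile. The member median of 0.49 and the list medians, between 0.31 and 0.45, lie to the right of the median of all tested probes, 0.07.

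How far the members stood on the ADM side depended on the scaling. With a loess span of 0.1, 5 member probes were higher and 2 lower, against 18.7% of all tested probes called (5.09% higher, 13.6% lower). With median centring, which leaves the rise of the ratio with brightness in place, 9 member probes were higher, 2 lower and 3 not called, but 72.4% of all tested probes were called (36.1% higher, 36.3% lower). The member median was then 2.08 and that of all tested probes 0.00. With the scanner's processed signals 7 were higher, 2 lower and 5 not called, against 46.2% of all probes (32% higher, 14.2% lower), with medians of 0.99 and 0.69. By the brightest tested probe of each gene, 7 members were higher and 0 lower with median centring, where 74.2% of all genes were called (41.5% higher, 32.8% lower). With processed signals 5 were higher and 1 lower, against 44.3% of all genes (27.6% higher, 16.7% lower). The share of all calls that were higher was 33.7% with loess, 69.3% with processed signals, 49.8% with median centring and 99.2% with spike-in centring. Both Bckdhb probes, Ivd A_52_P550069, Mccc1 A_52_P442691 and Pcca were called higher under loess of either span, processed signals and median centring. Bcat2 A_52_P393781 was called lower under the same 4. The low value of Bckdha A_51_P466148 was kept with processed signals (-2.16, limma adjusted p = 0.0189) and lost with median centring.

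**Figure D5:**
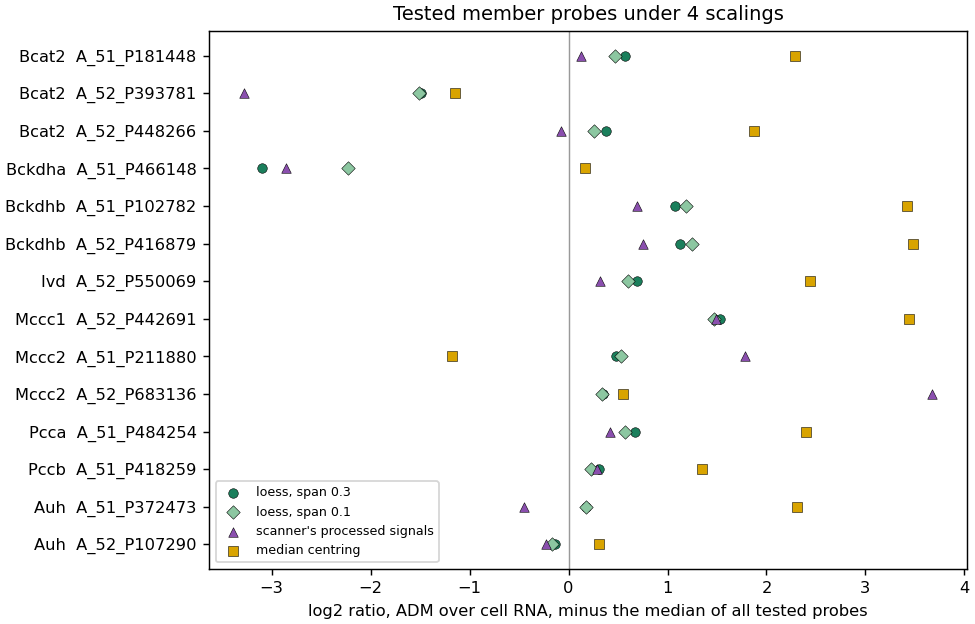
Log2 ratio of ADM over cell RNA for the 14 tested member probes under 4 scalings, each minus the median of all tested probes under that scaling. Dark green circles are loess with a span of 0.3, light green diamonds loess with a span of 0.1, purple triangles the scanner's processed signals and yellow squares median centring. Both Bckdhb probes and Mccc1 A_52_P442691 lie right of 0 under every scaling, Bcat2 A_52_P393781 lies left of 0 under every one, and Bckdha A_51_P466148 crosses 0 with median centring.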

How the data were processed

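RNA of ADMs and donor cells was measured on 2 Agilent 2-colour mouse arrays with exchanged dyes. Feature Extraction 10.5.1.1, per the file headers, measured the intensities of spots and of their local background, which were deposited without normalization, with probe positions on mouse build mm7. Per the same file headers it also subtracted background, detrended and dye-normalized the deposited processed intensities, and took from them the log10 ratio (Cy5 over Cy3). A series table of log10 ratios, also deposited, equalled that ratio turned to ADM over cell on both arrays (100% of values within 1e-04), with a median of 0 per column. Any further step by the authors is not given in these sources.

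From the deposited intensities, spots whose local background carried the outlier flag were left out (2303 in replicate 1, 1710 in replicate 2). Background was corrected with normexp (offset 50) and ratios were normalized by loess (span 0.3, control and outlier spots at weight 0) in limma 3.58.1, R 4.3.3. Log2 ratios were turned to ADM over cell and spots of a probe averaged. A probe counted as well above background with 50% or more of its spots so flagged, and was tested where this held in 1 RNA on both arrays and both arrays had a value. The mean was tested against 0 with lmFit and eBayes (1 residual degree of freedom, 2.91 prior), with Benjamini-Hochberg adjustment at 0.05 over all 18117 probes. Errors after ± are SDs over the arrays. Arrays give no read depth, and their number limits the precision. Of 41174 probes, 23070 were named through RefSeq accessions and 18104 kept the file's name. Members were matched by the file's gene name.

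A lower bound of a fold took each channel after loess and Aquantile normalization, with the cell channel at the higher of its own value and the lowest value well above background. Like signal means within 0.25 log2 of a probe's mean signal. Simulated data held the cell signal of unchanged probes at a fixed share of ADM signal on both arrays, unlike the measured signals. They therefore cannot give the share of false calls in the measured data. With a simulated spread between arrays close to the measured one, the fit called no unchanged probe. It missed part of the changed ones, with ratios compressed towards 0. With a smaller spread than measured it also called unchanged probes of small ratio, most of which a span of 0.1 removed, so that span was added as an alternative after seeing the data.

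All 10 members are described with every probe. Of the neighbouring lists, genes called by the brightest probe are named, up to 8 a list, with Bcat1, Bckdk, Ppm1k, Dld and Klf15 always. Mcee was named outside this rule, after its values were seen. The other list genes named without a value, and the marker genes, are given as list members. Members, lists and the rule on local background were chosen with earlier results of these data known. Alternatives were an offset of 10, processed signals, the deposited series table, median centring, spike-in centring, flagged local backgrounds kept or only those above 100 left out, no filter, a filter on both RNAs, a trended or robust prior, the median of a gene's probes and each array alone. Probe sequences were not used here.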

Additional observations from a re-analysis of the deposited data

How the results depend on the processing

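Loess left a trend with brightness, with a median log2 ratio between 0.05 and 0.19 up to a mean log2 signal of 11 and of -0.27, -0.62 and -1.52 in the 3 brightest classes, and Bckdha A_51_P466148 lies in the brightest of these. With a span of 0.1 the brightest class stood at -0.53. Only 1 residual degree of freedom stands behind each p-value, and dim cell signals limit the ratios of Dbt, Mccc2 and Ppm1k. With median centring the prior degrees of freedom were infinite, so that all probes share 1 variance and its p-values are not comparable with the others. The test was paired by design, because each array holds 1 ADM RNA and 1 cell RNA, and their ratio is the value tested.

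Of all probes 2969 were called, against 4923 with an offset of 10, 8372 with processed signals or the deposited series table, 13116 with median centring, 17476 with spike-in centring and 0 with flagged local backgrounds kept. The number was 4154 with a trended prior and 3383 with a span of 0.1. The 8 member calls became 14 with spike-in centring and 0 with flagged backgrounds kept. With only backgrounds above 100 left out, 18 member probes could be tested, with 7 higher and 3 lower (19.4% of all probes called). The member median of 0.49 became 0.99 with processed signals or the series table, 2.08 with median centring, 5.59 with spike-in centring and 0.16 with flagged backgrounds kept, and ran from 0.38 to 0.75 when either replicate was left out. These totals are probes, while the list counts below are genes by their brightest tested probe unless said otherwise. By that rule 19.5% of all genes were called, 44.3% with processed signals and 74.2% with median centring. Shares over all genes are not given here for the other settings. Among 20 other catabolic genes 3 calls became 5 with an offset of 10, 7 with processed signals or the series table, 16 with median centring, 18 with spike-in centring, 0 with flagged backgrounds kept and 8 with a span of 0.1. Among regulators and carriers 2 became 5 with an offset of 10 or a trended prior, 7 with processed signals, the series table or median centring, 10 with spike-in centring, 0 with flagged backgrounds kept and 1 when a gene stood by its median probe. For the other dehydrogenase complexes 5 became 9 with median centring, 11 with spike-in centring and 0 with flagged backgrounds kept. For biotin carboxylases 0 became 2 with an offset of 10, processed signals or the series table, 3 with median or spike-in centring, and 1 with a trended prior or a span of 0.1. For acyl-CoA dehydrogenases 0 became 3 with median or spike-in centring and 1 with a trended prior. The cause of these shifts was not tested.

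Reversed signs came mostly with the scaling. With spike-in centring the values were 2.36 for Bcat2 A_52_P393781, 3.68 for Bckdha A_51_P466148, 3.82 for Auh A_52_P107290, 4.95 for Slc3a2, 2.91 for Pdhx, 2.65 for Pdk2, 4.81 for Acat1 and 2.88 for Bcat1. With median centring they were 0.17 for Bckdha A_51_P466148, -1.17 for Mccc2 A_51_P211880, 0.31 for Auh A_52_P107290, 1.44 for Slc3a2, 1.31 for Acat1 and -0.63 for Ppm1k. Auh A_52_P107290 also turned to 0.46 with processed signals or the series table and ran from -0.18 without replicate 1 to 0.038 without replicate 2. The call of Bcat2 A_51_P181448 was lost with an offset of 10 (limma adjusted p = 0.0603), processed signals (0.0670) and a robust prior (0.0517), as well as with a span of 0.1. Pdha1 was lost with processed signals (0.0582), and Pdk1 with an offset of 10 (0.0513), a robust prior (0.0501) and a span of 0.1 (0.0729). Pdhx was lost with median centring (0.120). Mccc2 A_51_P211880 passed with an offset of 10 (0.0218) and Bckdk with a trended prior (0.0443), as did Ppm1k with an offset of 10 (0.0336) and processed signals (0.0212).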
